A study of Mus musculus with 15 samples.

Results

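Left ventricles of mice carrying 1 mutated and 1 normal copy of Rbm20 were compared with those of wild-type mice. The mutation, S637A, changes a serine of the protein RBM20 to alanine, and the mice that carry it are called the A-line. The members were the 3 libraries labelled A-line HET (genotype Rbm20 S637A +/-, n = 3) and the 3 labelled WT (n = 3), that is 6 of the 13 distinct libraries among 15 deposited columns. All were total RNA libraries of the left ventricle of C57BL/6 mice at 2 months of age. The neighbouring groups used below were G-line HET (Rbm20 S639G +/-, n = 3), which carries 1 copy of a different serine mutation, and A-line HOM (Rbm20 S637A -/-, the label used for mice with both copies mutated). A further group, G-line HOM (Rbm20 S639G -/-, n = 3), entered the fits and their shared estimate of spread but was not compared. The series asks by what mechanisms the 2 mutations act in remodelling of the heart. How the alleles were made, how many founder lines there were and whether each library came from its own animal are not given in the labels, so the p-values measure the spread between these libraries, which may be partly technical.

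The names of 2 libraries are uncertain, and every comparison with WT rests on them. The columns of WT replicates 2 and 3 held the same count in all 40174 gene symbols as those of A-line HOM replicates 2 and 3. They entered here a single time, under the WT name, so that WT replicate 1 had no double and A-line HOM was reduced to its replicate 1. Which of both names is right cannot be read from the labels. Mitochondrial ribosomal RNA took 20.2% and 20.5% of the counts in these 2 libraries, 23.4% in WT replicate 1 and 15.1% in A-line HOM replicate 1. Which name such values go with was not tested.

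RBM20 is an RNA-binding protein of heart and skeletal muscle that acts in the nucleus and controls which exons of titin and other muscle transcripts are kept. Its arginine- and serine-rich stretch holds the serines that are changed in inherited dilated cardiomyopathy, and mutations there are known to move the protein into granules in the cytoplasm. Counts per gene give the amount of a transcript and not its splicing, so exon choice in titin was not analysed here.

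Total counts ran from 25279202 to 26549906 in WT and from 12959087 to 17448328 in A-line HET, so the mutant libraries were the shallower ones. Mitochondrial ribosomal RNA took 15.3% ± 1.97 (SD, n = 3) of the counts in A-line HET and 21.4% ± 1.77 (SD, n = 3) in WT, with no overlap between groups (exact permutation test, two-sided p = 0.1, the smallest that 3 against 3 allows). Levels below are CPM, each library being scaled by its total and its TMM factor. Myl2, the ventricular light chain, was at 7081, 5549.6 and 6333 CPM in WT and 5286, 5684 and 4089 CPM in A-line HET. Atrial transcripts were present in 1 library of each group: Myl7, the atrial light chain, reached 524 CPM in the second WT library and 240.1 CPM in the third A-line HET library, with 0.25 CPM or less in the other 4. Arntl, a core clock gene, was at 29.04 CPM in A-line HET replicate 2 and at 3.14 CPM or less in the other 5. A-line HET replicate 1, the shallowest library, was the mutant library nearest to the WT mean in 950 of the 1400 genes called below (67.9%), and replicates 2 and 3 were nearest in 248 and 202.

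Many transcripts were higher and as many lower in A-line HET than in WT. At an adjusted p under 0.05 (edgeR's quasi-likelihood test, Benjamini-Hochberg over all genes), 1400 of 17588 genes were called, 7.96% of those tested. Of these, 701 were higher in A-line HET (3.99%) and 699 lower (3.97%), and 255 of the higher and 204 of the lower ones differed by more than 2-fold. The libraries of both groups did not overlap in 4583 genes, 26.1% of those tested, and in 1375 of the 1400 called. At an unadjusted p under 0.05 stood 3861 genes (22%), and the median log2 fold change of all tested genes was 0.02. Without the 2 shared libraries, which leaves 1 WT library whose spread is taken from the other groups, 165 genes were called, 158 of them among the 1400. With the 2 libraries counted in both groups, edgeR called 0 genes, with 3556 at an unadjusted p under 0.05. Both compared groups held the same libraries there, so the kept direction of all 1400 was largely fixed in advance. Counting the 2 as A-line HOM alone left 1 WT library, the same one as with the pair left out. In that setting the 2 also entered the estimate of spread, beside A-line HOM replicate 1. None of the 1400 was called there, and all kept their direction against that library. The count ran from 622 without WT replicate 3 to 2038 without A-line HET replicate 1, with 652 without WT replicate 1, 707 without A-line HET replicate 2 and 704 without A-line HET replicate 3. It was 651 without the 3 libraries that held atrial transcripts, the third being G-line HOM replicate 1 (Myl7 at 45.8 CPM). Adjusted p-values without the shared pair are printed below for some genes only, mostly those that kept their call. Most of the called genes named below lost their call in that setting, also where their paragraph does not say so. The plot of all tested genes shows that the called genes lay on both sides at every level of expression.

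**Figure D1:**
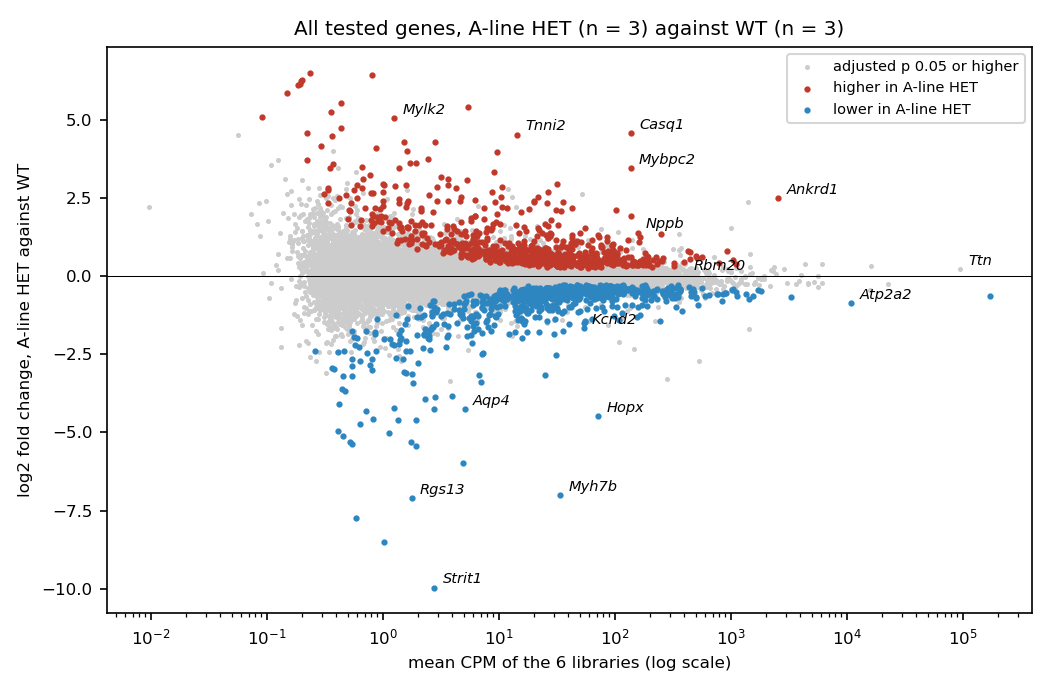
Each point is 1 of 17588 genes, with the mean CPM of the 6 libraries on the x axis (log scale) and the log2 fold change of A-line HET against WT on the y axis. Coloured points are the 701 genes called higher (red) and the 699 called lower (blue). Myh7b, Hopx and Strit1 lie far below 0, Casq1, Mybpc2 and Ankrd1 far above it, and Rbm20 near it.

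The upstream sequences of 4 genes are printed here, each of which stayed called without any 1 of the 6 libraries, 3 of them also without the shared pair. These sequences are given so that the promoters of genes nearly lost (Myh7b, Hopx) can be read beside those of stress genes that rose (Ankrd1, Nppb). Each line gives the 250 bases before the start site from RefSeq, 5′ to 3′ on the gene's strand, at GRCm38.p6 positions. The deposited counts were made on GRCm39, so these positions do not apply to the authors' alignments. Capitals mark the M-CAT motif CATTCC or its reverse complement GGAATG, the site of TEAD factors in muscle promoters, and both strands were searched.
Myh7b, chr2:155610993-155611242, plus strand: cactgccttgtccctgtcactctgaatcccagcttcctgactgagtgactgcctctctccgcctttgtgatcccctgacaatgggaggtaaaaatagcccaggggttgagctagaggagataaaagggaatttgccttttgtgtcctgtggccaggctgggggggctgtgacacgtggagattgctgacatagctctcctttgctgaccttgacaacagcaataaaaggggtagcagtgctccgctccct
Hopx, chr5:77115124-77115373, minus strand: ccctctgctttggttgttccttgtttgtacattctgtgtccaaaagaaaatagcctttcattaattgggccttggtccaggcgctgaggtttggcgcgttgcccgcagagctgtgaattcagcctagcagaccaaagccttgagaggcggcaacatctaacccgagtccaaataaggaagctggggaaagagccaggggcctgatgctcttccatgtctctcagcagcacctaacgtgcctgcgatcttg
Ankrd1, chr19:36119845-36120094, minus strand: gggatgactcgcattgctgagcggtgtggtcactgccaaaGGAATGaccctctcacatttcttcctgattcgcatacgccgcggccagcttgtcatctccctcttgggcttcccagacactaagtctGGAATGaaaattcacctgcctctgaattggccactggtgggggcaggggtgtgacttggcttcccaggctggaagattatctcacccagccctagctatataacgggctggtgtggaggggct
Nppb, chr4:147985650-147985899, plus strand: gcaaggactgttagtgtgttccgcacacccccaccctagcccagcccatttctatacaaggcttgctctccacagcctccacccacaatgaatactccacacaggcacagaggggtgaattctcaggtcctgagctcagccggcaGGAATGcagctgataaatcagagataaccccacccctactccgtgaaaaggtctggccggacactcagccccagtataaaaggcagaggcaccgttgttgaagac

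The Ankrd1 window held 2 M-CAT matches and the Nppb window 1, and the Myh7b and Hopx windows held none. Of the other windows searched, those of Mybpc2 and Ccn1, both higher in A-line HET, held 1 each. Casq1, Ramp1, Mthfd2, Atf4, Atf5, Ddit3, Slc38a2 and Ppp1r15a, which were also higher, held none, and neither did Slc7a1, Kcnd2 or Edn3, which were lower. Across all 32851 promoter entries of the same length, 12.64% held at least 1 match. A second motif, CARE (TGATGNAA, N being any base), was searched in the same way. None of the windows searched held it, and 3.45% of all entries did. Hopx has a further start site in the table that is not printed here. A match is a run of letters and no evidence of a bound factor, and a window without one says nothing about the factor.

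The 12 lowest and 12 highest genes were taken among called genes whose libraries did not overlap, so their separation follows from that choice. The most reduced transcripts were close to absent in all 3 mutant libraries. Myh7b encodes a slow-type myosin heavy chain whose gene also carries a muscle microRNA. It stood at 70.4, 55.3 and 75.01 CPM in WT replicates 1 to 3 and at 0.315, 0.583 and 0.585 CPM in A-line HET. Every WT library was far above every mutant library, and the log2 fold change was -7.02 ± 0.34 (SE; adjusted p = 6.27e-07). Hopx, a small homeodomain protein without DNA binding of its own that modulates cardiac transcription, stood at 145, 122 and 146 CPM in WT and 9.93, 4.55 and 4.63 CPM in A-line HET. A-line HET replicate 1 kept the highest Hopx level of the mutants and still lay far below WT (-4.47 ± 0.30 on the log2 scale, SE; adjusted p = 3.48e-05). Reads of Hopx and of its antisense neighbour Hopxos cannot be told apart, since the use of strand in counting is not given. Both calls held without the shared pair (adjusted p = 4.04e-05 for Myh7b and 0.000963 for Hopx by the same test).

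Strit1 encodes DWORF, a small membrane peptide that stimulates the calcium pump of the sarcoplasmic reticulum. It was read at 6.66, 4.84 and 5.25 CPM in WT and had 0 counts in all 3 A-line HET libraries against 409 in WT. With a floor of 3 counts over the mutant group this makes it at least 89.99-fold lower (adjusted p = 0.00018). Rgs13, a regulator of G-protein signalling, had 1 count in A-line HET and 263 in WT, a ratio of 173.6 with a 95% counting interval from 30.9 to 6883 (adjusted p = 8.90e-05). Its WT libraries were at 3.22, 4.05 and 3.38 CPM, all clear of the mutants. The phosphodiesterase gene Pde11a had 3 counts in A-line HET and 163 in WT, a ratio of 35.9 (95% counting interval 12.1 to 175.7; adjusted p = 0.00237). These intervals and the floor cover counting error only. The filter on low counts asks for 3 libraries, and Strit1, Rgs13, Pde11a, Lincred1 and Ubxn10, read almost only in WT, passed it through the WT libraries alone. Their low level in the mutants is thus partly built into the choice, and their adjusted p-values and intervals are no separate support. They were not tested once any WT library was left out.

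Aqp4, a water channel, was at 11.9, 8.33 and 8.84 CPM in WT and 0.946, 0.292 and 0.372 CPM in A-line HET. Again no mutant library came near a WT library, and the log2 fold change was -4.24 ± 0.41 (SE; adjusted p = 4.66e-05). Rhd, a gene of the Rh blood group family, was read at 5.33, 4.996 and 5.38 CPM in WT and 0.473, 0.0583 and 0.319 CPM in A-line HET, which differed by -4.24 ± 0.55 on the log2 scale (SE; adjusted p = 0.000464). The other genes among the 12 lowest were Lincred1, a non-coding RNA, Acsm5, an acyl-CoA synthetase, Ubxn10, a cilium-related protein, Cngb3, a cyclic nucleotide-gated channel subunit, and Lgi1, a secreted protein of neurons. Their log2 fold changes lay between -5.32 (Lincred1) and -3.84 (Lgi1). Ubxn10 and Lgi1 were the less stable ones. Ubxn10 lost its call without A-line HET replicate 2 (adjusted p = 0.0525) or 3 (0.0891), and Lgi1 without WT replicate 3 (0.0536) or A-line HET replicate 3 (0.0593). Lgi1 also spread widely among the mutants, at 1.58, 0 and 0.1595 CPM. The plot of these 12 genes also shows G-line HET and A-line HOM replicate 1, in which all 12 were below every WT library.

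**Figure D2:**
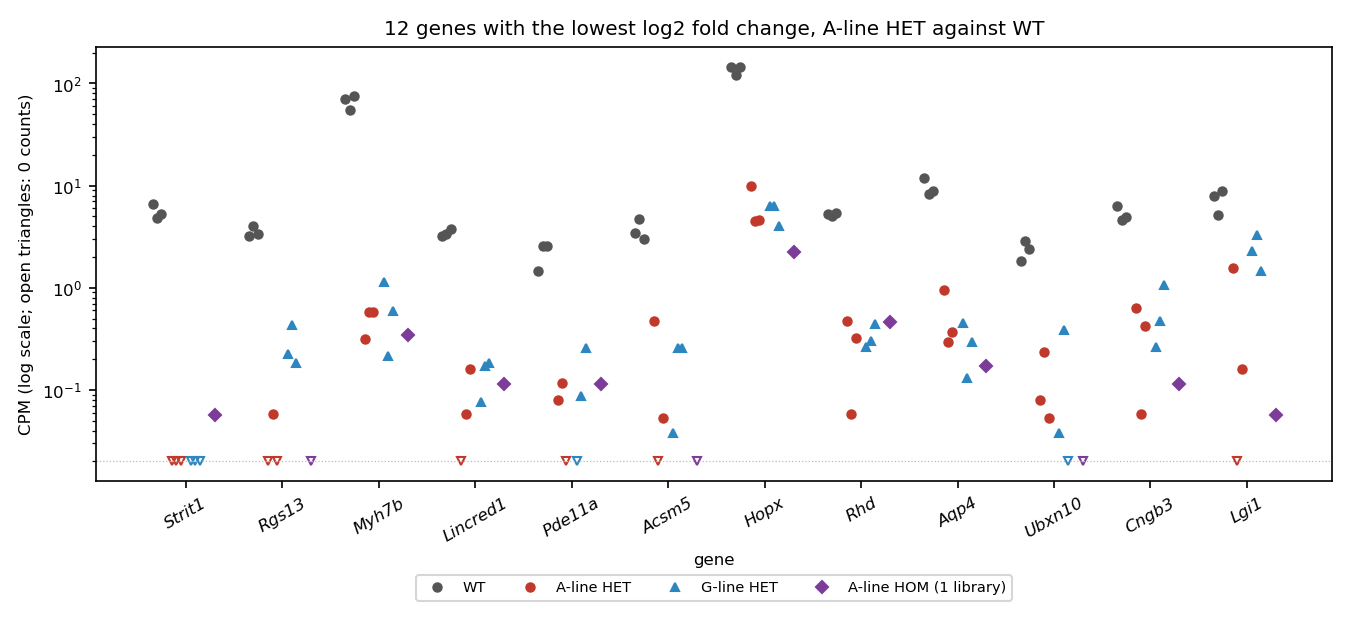
CPM on a log axis in each WT, A-line HET, G-line HET and A-line HOM library for the 12 genes with the lowest log2 fold change, ordered from Strit1 to Lgi1. Filled symbols are libraries and open triangles at the bottom mark 0 counts. The 3 WT points lie above all 3 A-line HET points in each gene, which the choice of genes required.

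Several genes of fast skeletal muscle rose in the mutant ventricle. Casq1, the skeletal calsequestrin that stores calcium in the sarcoplasmic reticulum, stood at 9.15, 16.4 and 7.96 CPM in WT and 221, 351 and 233 CPM in A-line HET. All mutants lay far above the highest WT library, WT replicate 2, and the log2 fold change was 4.58 ± 0.32 (SE; adjusted p = 4.66e-05). Mybpc2, the fast form of myosin-binding protein C, was at 17.95, 34.7 and 15.7 CPM in WT and 135, 327 and 292 CPM in A-line HET. WT replicate 2 was again the highest control and A-line HET replicate 1 the lowest mutant, without overlap (log2 fold change 3.46 ± 0.40, SE; adjusted p = 0.00138). The fast troponin gene Tnni2 stood at 0.558, 1.703 and 1.29 CPM in WT and 32.9, 30.96 and 19.8 CPM in A-line HET, which differed by 4.53 ± 0.61 on the log2 scale (SE; adjusted p = 0.00266). Mylk2, the skeletal myosin light chain kinase, was barely read in WT, at 0.0859, 0.0757 and 0.0417 CPM, and stood at 2.29, 2.04 and 3.03 CPM in A-line HET (5.07 ± 0.76 on the log2 scale, SE; adjusted p = 0.00179).

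Casq1 and Mybpc2 stayed called without the shared pair (adjusted p = 0.000394 and 0.0241), while Tnni2 and Mylk2 did not (0.0715 and 0.123). Of the 14 skeletal muscle markers, 8 were tested and 4 were called higher, Casq1, Tnni2, Myl1 and Tnnt3, with a median log2 fold change of 2.13 over the 8. That is 50% of those tested against 7.96% of all genes. The gene lists were chosen with earlier results of these data known, so this contrast is no separate support. Casq1 and Tnni2 were also already described above as higher, and the share rests on 8 genes. Tnnt3 lost the call without WT replicate 1 (adjusted p = 0.0659), 2 (0.0547) or 3 (0.0692). The summed level of the markers was 832 to 1047 CPM in WT and 1059.5 to 1255 CPM in A-line HET. The markers that define fast fibres were at or near 0 in every library: Myh4 reached 0.292 CPM, Mylpf 0.117, Myh1 0.266, Myh2 0.0532, Tnnc2 0.394 and Actn3 0.532 in the highest A-line HET library, and Myh4 and Mylpf had 0 counts in WT.

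The remaining genes among the 12 highest did not form 1 class. They were the receptor and enzyme genes Grin2a (a glutamate receptor subunit) and Nos1 (neuronal nitric oxide synthase), the signalling genes Kctd16, Rasgef1a and Fzd2 (a Wnt receptor), the anion transporter Slc26a4 and the mitochondrial folate enzyme Mthfd2. Slc26a4 was the one of these that kept its call without any 1 library: it stood at 0.344, 0.454 and 0.0834 CPM in WT and 1.26, 4.72 and 4.89 CPM in A-line HET (3.61 ± 0.57 on the log2 scale, SE; adjusted p = 0.00252). Its lowest mutant library was replicate 1. The same library was the lowest mutant for Kctd16, at 4.73, 24.9 and 25.2 CPM in A-line HET against 1.12, 1.93 and 0.459 CPM in WT, and Kctd16 lost its call without WT replicate 1 (adjusted p = 0.0514). Mthfd2 was uneven among the mutants, at 2.76, 32.8 and 14.2 CPM, and its adjusted p rose from 0.0366 to 0.134 without WT replicate 1, 0.0729 without WT replicate 2, 0.132 without WT replicate 3, 0.0869 without A-line HET replicate 2 and 0.088 without A-line HET replicate 3. Grin2a, Nos1, Rasgef1a and Fzd2 also lost their calls without at least 1 library, to adjusted p-values as high as 0.154, 0.0647, 0.0505 and 0.0782.

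**Figure D3:**
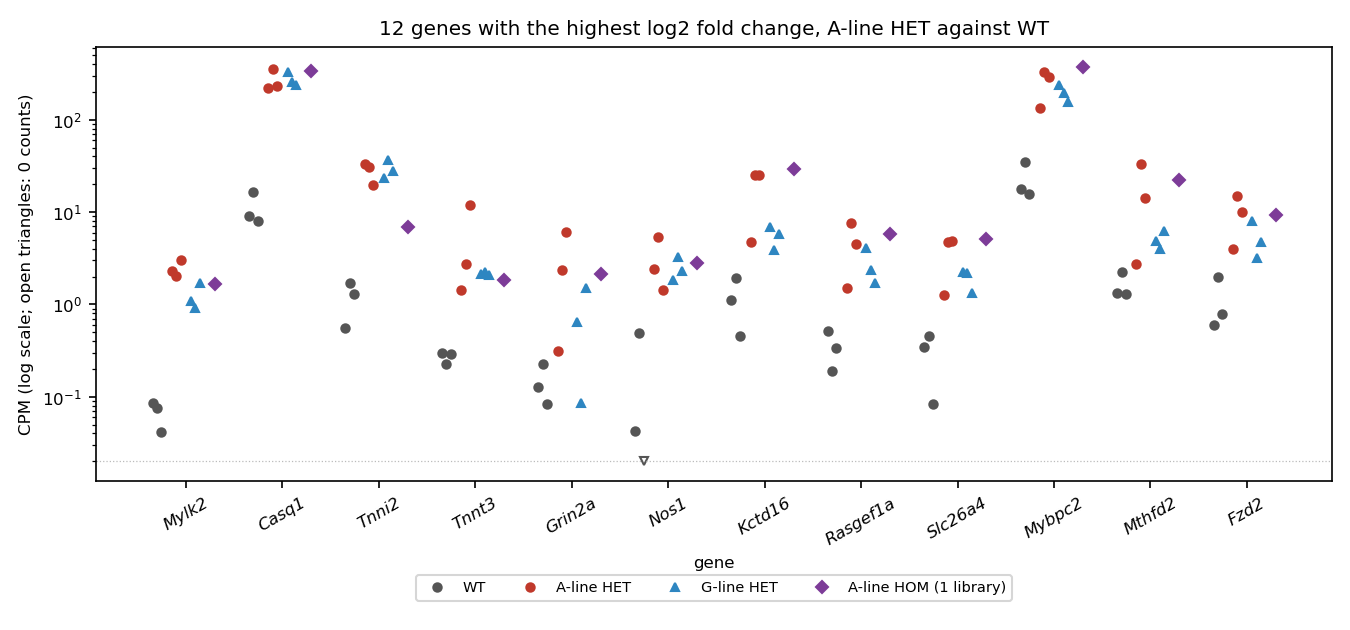
CPM on a log axis in each WT, A-line HET, G-line HET and A-line HOM library for the 12 genes with the highest log2 fold change, ordered from Mylk2 to Fzd2. Filled symbols are libraries and the open triangle marks 0 counts. The A-line HET points lie above the 3 WT points in each gene, which the choice of genes required. A-line HET replicate 1 is often the lowest of the A-line HET points.

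Some genes of wall stress rose. Ankrd1, a titin-associated ankyrin repeat protein that rises with wall stress, stood at 718, 877 and 723 CPM in WT and 3458, 4629.6 and 4946 CPM in A-line HET. The lowest mutant library was far above the highest WT library, and the log2 fold change was 2.49 ± 0.19 (SE; adjusted p = 1.43e-05, 0.00367 without the shared pair). Nppb, the natriuretic peptide BNP, was read at 84.9, 70.7 and 106 CPM in WT and 175, 248 and 265 CPM in A-line HET. Replicate 1 was the lowest mutant and still above all WT libraries (1.40 ± 0.23 on the log2 scale, SE; adjusted p = 0.00449). Without the shared pair its adjusted p was 0.0781.

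Nppa, the atrial natriuretic peptide, could not be read cleanly. It stood at 64.2, 1194 and 86.98 CPM in WT and 936, 2584 and 3522 CPM in A-line HET, and WT replicate 2, which held atrial transcripts, overlapped the mutants (log2 fold change 2.39 ± 1.12, SE; adjusted p = 0.263). Without the libraries that held atrial transcripts the adjusted p was 0.0452. Acta1, the skeletal actin of the fetal programme, was at 121, 332 and 117 CPM in WT and 243, 222 and 228 CPM in A-line HET and did not pass (adjusted p = 0.811). WT replicate 2 held the highest Acta1 level of the 6 libraries.

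Of 34 tested genes of the fetal and wall-stress list, 8 were higher and 2 lower (29.4% called), with a median log2 fold change of 0.28. The higher ones were Ankrd1, Nrap, Pfkp, Nppb, Csrp3, Ankrd23, Flnc and Tnni1, and the lower ones Myh7 and Edn3. The first 4 kept their call without any 1 library. Nrap, which anchors actin filaments at the cell ends, stood at 714, 667 and 658 CPM in WT and 1002, 1294 and 1266 CPM in A-line HET (0.80 ± 0.12 on the log2 scale, SE; adjusted p = 0.00113). Myh7, the beta myosin heavy chain of the fetal ventricle, moved the other way, at 179, 224 and 157 CPM in WT and 104, 103 and 87.96 CPM in A-line HET, without overlap (-0.92 ± 0.17 on the log2 scale, SE; adjusted p = 0.00692). Myh6, the adult alpha chain, did not pass, at 23237, 24361 and 26119 CPM in WT and 24519.9, 19209.5 and 18732 CPM in A-line HET (adjusted p = 0.284). Myh6 and Myh7 are near-identical copies, so the division of reads between them is uncertain. The count of higher members fell to 4 without WT replicate 3 or A-line HET replicate 2.

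In the sarcomere list, 6 of 40 genes were higher, 6 lower and 28 not called, with a median log2 fold change of -0.02. The higher ones were Nrap, Csrp3, Smpx, Synpo2l, Flnc and Tnni1, all tied to the Z-disc, the cell ends or the fetal thin filament. The lower ones were Myh7b, Myh7, Myl3, Myoz2, Tnnt1 and Tnnc1. Myl3, the ventricular essential light chain, stood at 1819.7, 1714 and 1914 CPM in WT and 1330.4, 1085 and 844 CPM in A-line HET, with no overlap (-0.74 ± 0.15 on the log2 scale, SE; adjusted p = 0.00696). Titin itself, the scaffold of the sarcomere and the main splicing target of RBM20, stood at 97289, 78807 and 85683 CPM in WT and 102765, 97396 and 104310.0 CPM in A-line HET. The groups separated only narrowly, between WT replicate 1 and A-line HET replicate 2, and the difference did not pass (0.22 ± 0.11 on the log2 scale, SE; adjusted p = 0.259). Without WT replicate 3 or without A-line HET replicate 2 the count of higher sarcomere genes was 1, and that of lower ones ran from 3 without WT replicate 1, WT replicate 3 or A-line HET replicate 3 to 10 without A-line HET replicate 1.

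No difference in the amount of Rbm20 transcript was detected. It stood at 419, 357 and 409.9 CPM in WT and 419, 379 and 439 CPM in A-line HET, with overlapping groups (0.06 ± 0.10 on the log2 scale, SE; adjusted p = 0.775). A point mutation need not change the amount of its transcript, so this does not check the labels. Among 34 known splicing targets of RBM20, 5 were higher (among them Lrrfip1, Enah, Rtn4 and Camk2g) and 4 lower (Myh7, Fhod3, Trdn and Lmo7), 26.5% of those tested, with a median log2 fold change of -0.03. Enah, an actin-elongating protein of the intercalated disc, stood at 101, 98.2 and 94.9 CPM in WT and 129.5, 288 and 288 CPM in A-line HET. Replicate 1 was much nearer to WT than the other mutants (1.26 ± 0.24 on the log2 scale, SE; adjusted p = 0.00973). Lrrfip1, an actin- and nucleic acid-binding protein, was at 84.9, 76.5 and 83.8 CPM in WT and 112, 143 and 135 CPM in A-line HET (0.67 ± 0.11 on the log2 scale, SE; adjusted p = 0.00207). Camk2d, the calcium-dependent kinase whose exons RBM20 is known to regulate, and Ldb3, a Z-disc protein, did not pass (adjusted p = 0.962 and 0.695). Their mutant levels were 179, 206 and 200.3 CPM and 625, 663 and 584 CPM, inside or close to the WT range. Lrrfip1, Enah and Myh7 were the targets called without any 1 library. The list held 2 higher and 1 lower target without WT replicate 1, WT replicate 3 or A-line HET replicate 3. No target was called without the shared pair.

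Of 32 regulators of muscle splicing, 4 were higher (Srpk3, Ptbp2, Celf2 and Srsf7) and 2 lower (Celf1 and Rbfox1), 18.8% of those tested, with a median of 0.10. Srpk3, a muscle kinase of SR proteins, stood at 31.05, 30.4 and 31.6 CPM in WT and 43.8, 38.9 and 41.1 CPM in A-line HET, clear of each other by a small margin (0.41 ± 0.09 on the log2 scale, SE; adjusted p = 0.0125). The other 5 lost their calls without at least 1 library, Rbfox1 reaching an adjusted p of 0.12 without A-line HET replicate 3. Srpk3 was the sole higher call without WT replicate 1, WT replicate 3, A-line HET replicate 2 or A-line HET replicate 3. Without the 3 libraries that held atrial transcripts the list held 0 higher calls, so Srpk3 was lost there as well. Components of RNA granules, 36 genes, gave no call by edgeR in either direction, with 10 at an unadjusted p under 0.05, and DESeq2 called 2 higher and 1 lower. Without A-line HET replicate 1, edgeR called 4 higher and 3 lower.

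Of 42 genes of calcium handling, 3 were higher (among them Casq1 and Camk2g) and 8 lower (among them Strit1, Tmem38a, Atp2b1, Atp2a2, Jph1, Srl and Trdn), 26.2% of those tested, with a median log2 fold change of -0.14. Atp2a2, the SERCA2 pump that returns calcium to the sarcoplasmic reticulum, stood at 14769, 12905 and 14604 CPM in WT and 10080.5, 6547 and 6531 CPM in A-line HET. The groups did not overlap, and replicate 1 was the mutant closest to WT (-0.87 ± 0.17 on the log2 scale, SE; adjusted p = 0.00663). Tmem38a, the TRIC-A counter-ion channel of the same membrane, followed the same order, at 352, 334 and 371 CPM in WT and 259, 179 and 177 CPM in A-line HET (-0.78 ± 0.13 on the log2 scale, SE; adjusted p = 0.00251). Phospholamban (Pln), which restrains SERCA2, and the release channel Ryr2 did not pass, at -0.25 and -0.22 on the log2 scale (adjusted p = 0.259 and 0.215). The count of lower members ranged from 3 without WT replicate 1 or 3 to 11 without A-line HET replicate 1. Atp2a2 and Tmem38a were not called without the shared pair.

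Of 47 tested genes of ion channels and gap junctions, 5 were higher and 10 lower (31.9% called), with a median of -0.23. The higher ones included Cacna1g, Cacna1h, Kcne1 and Kcnq1. Cacna1h, a T-type calcium channel of the fetal ventricle, stood at 4.51, 10.7 and 4.09 CPM in WT and 43.7, 32.7 and 36.00 CPM in A-line HET. The lowest mutant lay well above WT replicate 2, the highest control (2.53 ± 0.32 on the log2 scale, SE; adjusted p = 0.00142, 0.000394 without the shared pair). The second T-type gene, Cacna1g, was at 12.8, 11.4 and 10.9 CPM in WT and 53.6, 66.6 and 61.9 CPM in A-line HET (2.38 ± 0.30 on the log2 scale, SE; adjusted p = 0.00142). Kcne1, an accessory subunit of the slow delayed rectifier, was read at 2.88, 2.801 and 2.17 CPM in WT and 15.5, 23.7 and 17.2 CPM in A-line HET (2.85 ± 0.36 on the log2 scale, SE; adjusted p = 0.00142). These 3 genes separated the groups fully and kept their calls without any 1 library. Without the shared pair Cacna1g and Kcne1 were not called.

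The lower channel genes were Abcc9, Cacna1s, Kcnv2, Kcnd2, Kcna7, Cacng6, Scn4b, Scn10a, Gja3 and Fgf13. Abcc9, the sulphonylurea receptor of the ATP-sensitive potassium channel, stood at 737, 575 and 758 CPM in WT and 439, 336 and 325 CPM in A-line HET. No library overlapped (-0.91 ± 0.16 on the log2 scale, SE; adjusted p = 0.00357, 0.0452 without the shared pair). Kcnd2, a pore subunit of the transient outward potassium current that sets early repolarisation in mice, was at 83.6, 80.2 and 82.7 CPM in WT and 27.8, 28.5 and 21.4 CPM in A-line HET. The 3 WT values were nearly equal and all mutants lay far below them (-1.67 ± 0.29 on the log2 scale, SE; adjusted p = 0.00661). Scn4b, a sodium channel beta subunit, was at 34.2, 46.6 and 52.6 CPM in WT and 12.1, 2.51 and 1.33 CPM in A-line HET, with replicate 1 the highest mutant (-3.15 ± 0.66 on the log2 scale, SE; adjusted p = 0.0219). Scn4b lost its call without WT replicate 3 (adjusted p = 0.0714) or A-line HET replicate 2 (0.0819). The count of lower channels ran from 6, without WT replicate 3, A-line HET replicate 2 or A-line HET replicate 3, to 14 without A-line HET replicate 1. Kcnd2 and Scn4b were not called without the shared pair.

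At the intercalated disc, where muscle cells are joined, 2 of 19 genes were higher (Nrap and Pkp2) and 3 lower (Dsp, Dsc2 and Tmem65), 26.3% of those tested. The desmosome genes went both ways. Dsp, desmoplakin, stood at 2221, 2045 and 2153 CPM in WT and 1646, 1421 and 1568 CPM in A-line HET (-0.47 ± 0.09 on the log2 scale, SE; adjusted p = 0.00563). Dsc2, desmocollin 2, was at 76.5, 82.5 and 73.5 CPM in WT and 50.8, 52.2 and 43.02 CPM in A-line HET (-0.67 ± 0.13 on the log2 scale, SE; adjusted p = 0.00709). Pkp2, plakophilin 2, was higher by a small amount, at 139, 122 and 141 CPM in WT and 177, 173 and 169.9 CPM in A-line HET (0.37 ± 0.08 on the log2 scale, SE; adjusted p = 0.0141, 0.0576 without WT replicate 2).

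**Figure D4:**
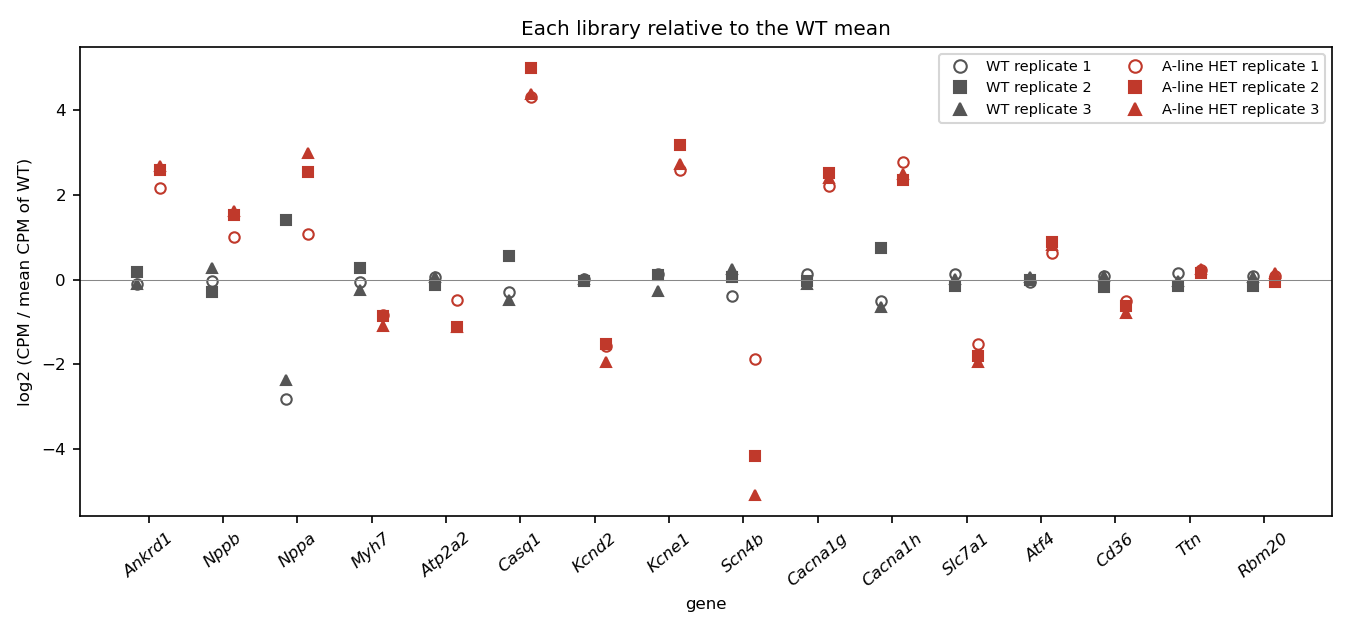
For 16 genes, each of the 3 WT (grey) and 3 A-line HET (red) libraries is drawn as the log2 ratio of its CPM to the mean CPM of WT, on a linear axis of log2 units. Open circles, filled squares and filled triangles are replicates 1, 2 and 3. Ankrd1, Casq1, Kcne1, Cacna1g and Cacna1h lie above the WT libraries and Kcnd2, Scn4b and Slc7a1 below them, Nppa overlaps through WT replicate 2, and Ttn and Rbm20 stay near 0.

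Fatty acid oxidation, the main fuel pathway of the adult heart, gave the highest share of calls among the 28 pathway lists: 21 of 53 genes were lower and 1, Bdh1, higher (41.5% called), with a median log2 fold change of -0.43. The lower members covered uptake (Cd36, Fabp3, Fabp4 and Lpl), activation (Acsl1, Acss1 and Acsm5), the mitochondrial steps (Hadha, Hadhb, Decr1, Acat1, Eci2 and Cpt2) and electron transfer (Etfa, Etfb and Etfdh), beside Acad11, Acot1, Acot13, Ehhadh and Acacb. Cd36, the fatty acid transporter of the cell membrane, stood at 1994, 1691 and 2001 CPM in WT and 1325, 1238 and 1104 CPM in A-line HET. The 3 mutant libraries were close together and below all WT libraries (-0.63 ± 0.10 on the log2 scale, SE; adjusted p = 0.00215, 0.0428 without the shared pair). Acad11, an acyl-CoA dehydrogenase, was at 198, 194 and 242 CPM in WT and 129, 103 and 90.3 CPM in A-line HET (-0.98 ± 0.14 on the log2 scale, SE; adjusted p = 0.000731, 0.0418 without the shared pair). Fabp4, a fatty acid-binding protein of capillaries and fat, was at 430.5, 413 and 452 CPM in WT and 313, 262 and 234 CPM in A-line HET (-0.68 ± 0.11 on the log2 scale, SE; adjusted p = 0.0022).

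Cd36, Acad11, Fabp4, Acsm5 and Decr1 kept their calls without any 1 library, and the other 16 lower members did not. The count of lower members was 5 without WT replicate 3 or A-line HET replicate 2, 27 without A-line HET replicate 1, and 2 without the shared pair. Of 15 endothelial markers 3 were lower (Cd36, Fabp4 and Emcn) and 12 did not pass, and 3 of the 15 had a log2 fold change above 0. Their summed level, which includes Cd36 and Fabp4, was 3285 to 3608 CPM in WT and 2277 to 2788 CPM in A-line HET. Cd36 and Fabp4 are themselves members of the fatty acid list, and Emcn, an endothelial surface protein, lost its call without WT replicate 1 (adjusted p = 0.0927), WT replicate 2 (0.0757), A-line HET replicate 2 (0.062) or A-line HET replicate 3 (0.0954). The part of endothelial content in the fatty acid genes was not tested. In bulk tissue, fewer cells of a type and less RNA per cell cannot be told apart.

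In the citric acid cycle and pyruvate list 5 of 37 genes were lower (Me1, Pcx, Suclg2, Pdp2 and Pdk2) and none higher, 13.5% of those tested, with a median of -0.25. Me1, the cytosolic malic enzyme, stood at 113, 98.1 and 121 CPM in WT and 64.9, 44.02 and 45.8 CPM in A-line HET (-1.10 ± 0.17 on the log2 scale, SE; adjusted p = 0.00217). Pcx, pyruvate carboxylase, was at 29.4, 36.3 and 29.8 CPM in WT and 22.7, 20.6 and 16.9 CPM in A-line HET (-0.67 ± 0.14 on the log2 scale, SE; adjusted p = 0.00842). These 2 kept their calls without any 1 library, while the list held 2 lower genes without WT replicate 1, WT replicate 3, A-line HET replicate 2 or A-line HET replicate 3 and 12 without A-line HET replicate 1. Nuclear genes of the respiratory chain gave no call among 79 by edgeR and none by DESeq2, with 3 at an unadjusted p under 0.05 and a median of -0.12. Leaving out A-line HET replicate 1 gave 6 lower ones.

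Of 33 genes of glucose uptake and glycolysis, 4 were higher (Pfkp, Hk1, Slc2a1 and Gyg) and 3 lower (Phkg1, Hk2 and Ldhb), 21.2% of those tested, with a median of -0.07. Pfkp, the platelet-type phosphofructokinase, stood at 74.4, 74.3 and 74.7 CPM in WT and 116, 127 and 111 CPM in A-line HET. Its WT libraries were almost identical and all mutants higher (0.66 ± 0.10 on the log2 scale, SE; adjusted p = 0.00139). Hexokinase 1 (Hk1) was at 124, 116 and 117 CPM in WT and 166, 174 and 165 CPM in A-line HET (0.50 ± 0.11 on the log2 scale, SE; adjusted p = 0.012, 0.0593 without WT replicate 3). The muscle form Hk2 went the other way, at 459, 364 and 401 CPM in WT and 302, 238 and 209.8 CPM in A-line HET (-0.71 ± 0.14 on the log2 scale, SE; adjusted p = 0.00704). Phkg1, a subunit of phosphorylase kinase, which starts glycogen breakdown, was at 24.05, 30.7 and 21.2 CPM in WT and 9.93, 3.56 and 6.06 CPM in A-line HET (-1.98 ± 0.35 on the log2 scale, SE; adjusted p = 0.00661). The list held 1 higher gene without WT replicate 3 and 11 lower ones without A-line HET replicate 1.

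In the matrix list, 9 of 68 genes were higher and none lower, 13.2% of those tested, and the median log2 fold change was 0.69, with 64 of the 68 above 0. The called ones were Ccn4, Lama2, Ccn1, Sparc, Col8a1, Fbn2, Timp1, Bgn and Col15a1. Ccn4, a matricellular protein known as WISP1, stood at 4.72, 4.504 and 2.46 CPM in WT and 13.3, 17.3 and 15.5 CPM in A-line HET. Every mutant lay well above the highest WT library (1.98 ± 0.19 on the log2 scale, SE; adjusted p = 5.03e-05, 0.00367 without the shared pair). Lama2, the laminin chain of the muscle basement membrane, was at 401, 417 and 409.9 CPM in WT and 602, 608 and 610.3 CPM in A-line HET (0.57 ± 0.09 on the log2 scale, SE; adjusted p = 0.00141). Sparc, a collagen-binding protein, was at 302, 331 and 302 CPM in WT and 590.0, 529 and 505 CPM in A-line HET (0.80 ± 0.16 on the log2 scale, SE; adjusted p = 0.00866).

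The fibrillar collagen and periostin genes did not pass. Col1a1 stood at 24.3, 58.4 and 26.4 CPM in WT and 54.2, 100.4 and 87.9 CPM in A-line HET (adjusted p = 0.243). Postn was at 44.6, 102 and 42.4 CPM in WT and 70.4, 75.7 and 105 CPM in A-line HET (adjusted p = 0.701). In both genes WT replicate 2 was the highest control and overlapped the mutants. Of 16 fibroblast markers, 8 of which are also in the matrix list, edgeR called none, with 9 at an unadjusted p under 0.05, and DESeq2 called 5 higher. Without WT replicate 2 edgeR called 4 of them higher, and without A-line HET replicate 1 it called 2. Their median log2 fold change was 0.75 and 15 of 16 were above 0, and their summed level was 2189 to 3804 CPM in WT and 3395 to 5355 CPM in A-line HET. In each group the highest sum was that of the library with atrial transcripts. The part of fibroblast content in the matrix genes was not tested. The count of higher matrix genes was 4 without WT replicate 1 or 3, 16 without WT replicate 2 and 1 without the shared pair, and DESeq2 called 19.

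Of 37 genes of the TGF-beta pathway, which drives matrix production, 6 were higher (Skil, Fstl3, Pmepa1, Inhbb, Inhba and Bmpr1a) and 1 lower (Bmpr2), 18.9% of those tested, with a median of 0.34. Skil, a repressor of SMAD transcription that is itself induced by the pathway, stood at 45.9, 55.4 and 49.5 CPM in WT and 94.2, 101 and 109 CPM in A-line HET. The mutants lay tightly together above all WT libraries (1.01 ± 0.09 on the log2 scale, SE; adjusted p = 3.83e-05, 0.0035 without the shared pair). Skil was the sole member called without any 1 library. The 2 activin subunit genes Inhba and Inhbb and the inhibitor Fstl3 lost their calls without WT replicate 1, among others. Bmpr2 lost it without A-line HET replicate 2 (adjusted p = 0.0624). The count of higher members was 1 without WT replicate 1, WT replicate 3 or A-line HET replicate 2 and 9 without A-line HET replicate 1.

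In the integrated stress response, by which cells slow translation and raise the factor ATF4, 10 of 41 genes were higher and 3 lower (31.7% called), with a median of 0.44. Atf4 itself stood at 39.3, 40.1 and 42.7 CPM in WT and 62.4, 75.3 and 71.00 CPM in A-line HET. The WT libraries were nearly equal and the mutants all higher (0.77 ± 0.11 on the log2 scale, SE; adjusted p = 0.000688, 0.0428 without the shared pair). The other higher ones were Ddit3, Slc38a2, Atf5, Eif4ebp1, Ppp1r15a, Mthfd2, Atf3, Phgdh and Aldh1l2, which encode factors, amino acid transport, a brake on translation and serine or folate enzymes. Of these 9, Ddit3 and Slc38a2 kept their calls without any 1 library.

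All 3 lower members of that list encode proteins of uptake or metabolism. Slc7a1, a transporter of cationic amino acids, stood at 60.5, 49.4 and 55.8 CPM in WT and 19.2, 15.9 and 14.5 CPM in A-line HET. All mutants lay far below the lowest WT library (-1.75 ± 0.11 on the log2 scale, SE; adjusted p = 1.40e-06, 0.000209 without the shared pair). Vldlr, the very low density lipoprotein receptor, was at 562, 535 and 566 CPM in WT and 346, 354 and 364 CPM in A-line HET (-0.65 ± 0.08 on the log2 scale, SE; adjusted p = 0.000522, 0.036 without the shared pair). Shmt1, a cytosolic serine hydroxymethyltransferase, was at 13.2, 12.3 and 15.3 CPM in WT and 5.75, 4.31 and 3.88 CPM in A-line HET (-1.56 ± 0.24 on the log2 scale, SE; adjusted p = 0.00161). The 3 were called without any 1 library, while the count of higher members was 3 without WT replicate 1 or A-line HET replicate 3, 16 without A-line HET replicate 1 and 1 without the libraries that held atrial transcripts.

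Of 25 chaperones and related genes of the endoplasmic reticulum, 7 were lower (Canx, Sel1l, Calr, Hyou1, Hspa5, Manf and Hsp90b1) and none higher, 28% of those tested, with a median of -0.26. Canx, calnexin, stood at 463, 404 and 415 CPM in WT and 346, 302 and 277 CPM in A-line HET (-0.47 ± 0.10 on the log2 scale, SE; adjusted p = 0.0086). Each of the 7 lost its call without at least 1 library, Canx at adjusted p-values of 0.0514 without WT replicate 1 and 0.0513 without A-line HET replicate 3. Without either of these libraries the list held 1 lower gene. In the heat shock list of 25 genes, Hspb7 was higher and Hspb6 lower, 8% of those tested, near the 7.96% of all genes. Both are small heat shock proteins of muscle, and both lost their calls without WT replicate 1, WT replicate 2 or A-line HET replicate 3 (adjusted p between 0.057 and 0.142).

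Immediate-early genes, which answer stimuli within minutes, gave 6 higher of 30 and none lower, 20% of those tested, with a median of 0.57: Fosl2, Btg2, Ccn1, Egr3, Atf3 and Ier5. Fosl2, a FOS-family factor, stood at 24.2, 24.2 and 19.3 CPM in WT and 41.1, 45.2 and 59.99 CPM in A-line HET. All mutants lay well above WT (1.11 ± 0.13 on the log2 scale, SE; adjusted p = 0.000245, 0.036 without the shared pair). Btg2, an antiproliferative factor, was at 24.6, 31.3 and 34.6 CPM in WT and 70.8, 51.8 and 60.7 CPM in A-line HET (1.02 ± 0.18 on the log2 scale, SE; adjusted p = 0.00511, 0.0452 without the shared pair). Ccn1, a secreted matricellular protein, was at 30.6, 24.8 and 22.5 CPM in WT and 36.5, 41.98 and 47.2 CPM in A-line HET (0.69 ± 0.14 on the log2 scale, SE; adjusted p = 0.00668). The count was 3 without WT replicate 3 or A-line HET replicate 3.

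Among cardiac transcription factors 5 of 30 were higher (Myocd, Yap1, Tbx20, Vgll2 and Vgll3) and 2 lower (Hopx and Tbx5), 23.3% of those tested, with a median of 0.01. Myocd, the co-activator of serum response factor in heart and smooth muscle, stood at 167, 123 and 152 CPM in WT and 232, 223 and 237 CPM in A-line HET, without overlap (0.65 ± 0.10 on the log2 scale, SE; adjusted p = 0.00198). Hopx and Myocd kept their calls without any 1 library. The others did not, and without WT replicate 2, WT replicate 3 or A-line HET replicate 2 the count of higher factors was 1. Yap1 and the Vgll genes encode partners of TEAD factors, whose motif was searched above.

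For adrenergic, cyclic AMP and natriuretic signalling 3 of 37 genes were higher (Adcy5, Rgs6 and Prkar1a) and 4 lower (Pde11a, Akap6, Corin and Rgs2), 18.9% of those tested. Adcy5, a main adenylyl cyclase of the heart, stood at 63.2, 62.3 and 66.8 CPM in WT and 106, 106 and 119 CPM in A-line HET. Both groups were tight and far apart (0.79 ± 0.09 on the log2 scale, SE; adjusted p = 0.000165, 0.0287 without the shared pair). In the calcineurin and hypertrophy list 2 of 33 were higher (Ace and Myoz1) and 4 lower (Ppp3r1, Fgf16, Agtr1a and Myoz2), 18.2% of those tested. Ppp3r1, the regulatory subunit of calcineurin, was at 65.4, 60.6 and 59.1 CPM in WT and 43.8, 43.6 and 41.4 CPM in A-line HET (-0.52 ± 0.09 on the log2 scale, SE; adjusted p = 0.00266). Fgf16, a growth factor made by heart muscle, was at 13.6, 10.1 and 11.5 CPM in WT and 4.26, 5.31 and 5.21 CPM in A-line HET (-1.24 ± 0.25 on the log2 scale, SE; adjusted p = 0.0084). Without WT replicate 1 the adrenergic list held no lower call (Pde11a was not tested there) and the calcineurin list no higher one, and Ace lost its call there (adjusted p = 0.0681). The adrenergic list held 6 higher and 6 lower genes without A-line HET replicate 1.

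Of the remaining lists, 3 of 31 cell cycle genes (9.68%) were lower (Cdk6, Ccng1 and Rb1), 3 of 14 in the creatine kinase system (21.4%, among them Slc6a8 and Ak4) and 3 of 30 in atrophy and autophagy (10%) higher (Sqstm1, Fbxo30 and Klhl40). The cell cycle and atrophy shares lie near the 7.96% of all genes. Cdk6, a cyclin-dependent kinase, stood at 32.5, 27.8 and 30.8 CPM in WT and 19.5, 15.9 and 18.1 CPM in A-line HET (-0.77 ± 0.11 on the log2 scale, SE; adjusted p = 0.000713, 0.0248 without the shared pair). The atrophy calls were gone without WT replicate 1 or A-line HET replicate 3. The creatine kinase calls were gone without any 1 of 5 libraries, the exception being A-line HET replicate 1, without which 7 genes were lower. Gbp6, an interferon-induced GTPase, was the sole call among 53 interferon genes, at 23.4, 24.5 and 29.6 CPM in WT and 9.61, 13.5 and 12.9 CPM in A-line HET (-1.10 ± 0.16 on the log2 scale, SE; adjusted p = 0.00126). Ncor1 was the sole lower gene of 23 metabolic regulators and Rps2 of 45 ribosomal protein genes, and both lost the call without WT replicate 1 (adjusted p = 0.0682 and 0.101). Without A-line HET replicate 1, 6 metabolic regulators were lower and 4 ribosomal protein genes higher. No gene of 21 in the clock list was called by edgeR or DESeq2, and 2 had an unadjusted p under 0.05. EdgeR called 2 clock genes lower without A-line HET replicate 1.

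Macrophage (17 tested), lymphatic (7), neutrophil (4), T and NK cell (3), B cell (4), mast cell (5), mesothelium (8) and erythroid (9) markers gave none by edgeR. At an unadjusted p under 0.05 they held 0, 0, 0, 0, 0, 1, 1 and 1 genes in that order, and DESeq2 called 1 erythroid gene lower and no other. Summed macrophage markers were 356 to 522 CPM in WT and 359.8 to 412 CPM in A-line HET, which overlap. Mesothelial markers summed to 2.49 to 9.76 CPM in WT and 1.42 to 21.2 CPM in A-line HET, and their member Upk3b was highest in the libraries with atrial transcripts, with 1.40 CPM (WT replicate 2) and 5.32 CPM (A-line HET replicate 3). Atrial markers gave 1 lower of 10 (Tbx5) and sums of 897 to 4433 CPM in WT and 1860.5 to 5905 CPM in A-line HET. Of 17 ventricular muscle markers 3 were lower (Myl3, Fabp3 and Tnnc1), 17.6% of those tested. The count was 1 without WT replicate 1, WT replicate 3 or A-line HET replicate 3, and 6 without A-line HET replicate 1. Smooth muscle and pericyte markers gave 1 higher (Myocd) and 1 lower (Abcc9) of 15, fat cell markers 1 lower (Fabp4) of 9, and Schwann cell and neuron markers 1 higher (Dbh) of 7. Dbh was not called without any 1 WT library or A-line HET replicate 3, and Tbx5 was not without WT replicate 1, WT replicate 2 or A-line HET replicate 2. Without A-line HET replicate 1 the smooth muscle and fat cell lists held 2 lower genes each. Conduction system markers gave 3 higher of 9 (among them Cacna1g and Smoc2), each called without any 1 library, with sums of 132 to 164 CPM in WT and 239 to 275 CPM in A-line HET. None of these 3 higher markers kept its call without the shared pair. Cacna1g is also in the channel list. The part of such cells in the results was not tested.

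**Figure D5:**
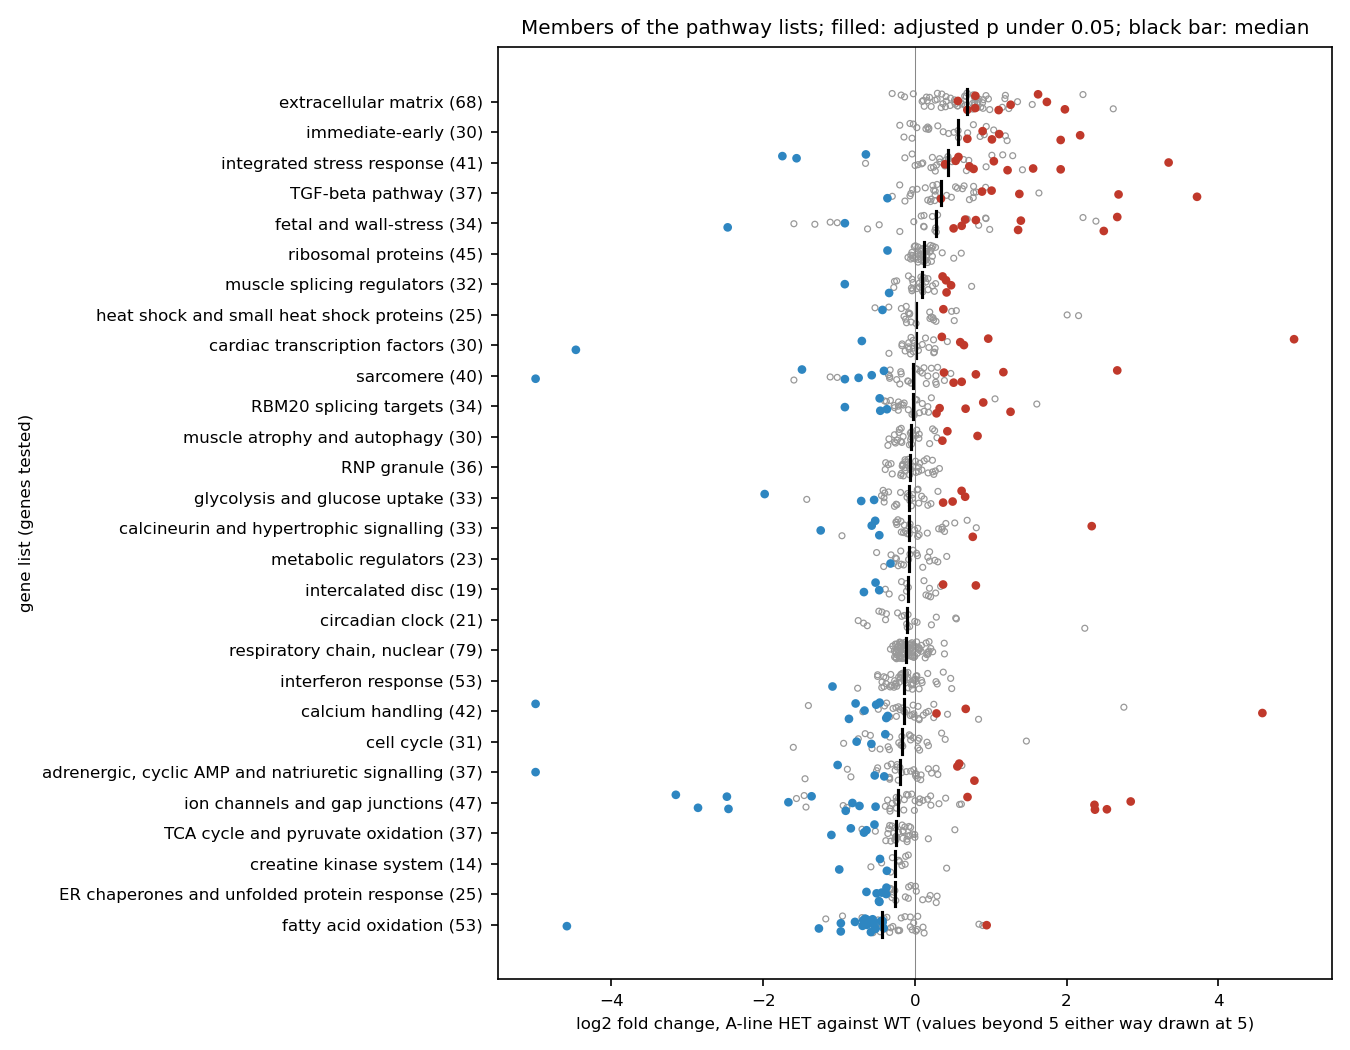
Each row is 1 of the 28 pathway lists with its number of tested genes, and each point is 1 gene at its log2 fold change of A-line HET against WT (x axis, values beyond 5 drawn at 5). Filled points are called (red higher, blue lower), open points are not, and the black bar is the median of the list. The matrix list has the highest median (0.69) and the fatty acid list the lowest (-0.43).

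A comparison of both heterozygous mutants uses no WT level, although the WT libraries enter the common estimate of spread: with the shared pair left out 3 genes were called, and with it counted as A-line HOM 1 gene. The question was whether S637A and S639G differ with 1 copy each. Total counts ran from 23714906 to 28121438 in G-line HET and from 12959087 to 17448328 in A-line HET, so mutation and depth cannot be told apart here. At an adjusted p under 0.05, 5 of 17588 genes were called (0.0284%), 2 higher (0.0114%) and 3 lower (0.0171%) in A-line HET, and 2331 genes had an unadjusted p under 0.05. Bcl2l11, which encodes the cell death protein BIM, stood at 19.9, 28.1 and 21.2 CPM in G-line HET and 40.03, 55.5 and 52.8 CPM in A-line HET. Every A-line library was above every G-line library (1.10 ± 0.15 on the log2 scale, SE; adjusted p = 0.0365), and WT was lower still, at 18.7, 14.00 and 14.6 CPM. Against WT the log2 fold change of Bcl2l11 was 1.65 ± 0.16 (SE; adjusted p = 4.66e-05, 0.019 without the shared pair).

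The 3 lower ones were Edn3, Slc39a14 and Hspb6. Edn3, endothelin 3, stood at 3.33, 1.77 and 3.004 CPM in G-line HET and 0.158, 0.175 and 0.319 CPM in A-line HET (-3.56 ± 0.52 on the log2 scale, SE; adjusted p = 0.0393). Slc39a14, a zinc and iron transporter, was at 86.6, 94.8 and 83.4 CPM in G-line HET and 64.3, 46.5 and 48.4 CPM in A-line HET (-0.74 ± 0.11 on the log2 scale, SE; adjusted p = 0.0398). Hspb6, HSP20, was at 244, 181 and 208 CPM in G-line HET and 127, 139 and 136 CPM in A-line HET (-0.66 ± 0.10 on the log2 scale, SE; adjusted p = 0.0398). WT stood at 1.63, 1.32 and 0.834 CPM for Edn3, 73.5, 71.5 and 65.3 CPM for Slc39a14 and 181, 189 and 170.0 CPM for Hspb6, above every A-line HET library of each gene. The fifth gene, LOC118568781, has no name, and its log2 difference was 4.25 ± 0.49 (SE; adjusted p = 0.00746).

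For Myh7b, Hopx, Casq1 and Ankrd1 the difference between the heterozygous lines was smaller than its standard error. The log2 difference was -0.36 ± 0.48 for Myh7b, 0.17 ± 0.30 for Hopx, -0.03 ± 0.27 for Casq1 and 0.10 ± 0.18 for Ankrd1 (SE; adjusted p = 0.777, 0.839, 0.977 and 0.842). Among the other genes highest against WT, Kctd16 differed by 1.74 ± 0.59 on the log2 scale (SE; adjusted p = 0.278). A p above the threshold does not show that the lines act alike. The count depended on A-line HET replicate 1: without it, 607 genes differed between the lines, 231 of them higher in A-line HET and the 5 included. Among those 607 were Scn4b (-2.91 on the log2 scale), Tmem38a (-0.66), Atp2a2 (-0.55) and Myl3 (-0.53), lower in A-line HET, and Enah (0.54), Rtn4 (0.50) and Ptbp2 (0.68), higher. With all 3 libraries the same genes were at -1.52, -0.46, -0.31, -0.36, 0.25, 0.25 and 0.53 and did not pass. Without A-line HET replicate 2, G-line HET replicate 1 or G-line HET replicate 3 edgeR called 0 genes (1672, 1412 and 1902 at an unadjusted p under 0.05), and DESeq2 with all libraries called 252.

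A second mutated copy could be set beside the heterozygote in 1 library only, A-line HOM replicate 1, whose spread is assumed to be that of the other groups. edgeR called 4 genes (0.0227%), all higher in A-line HOM, with 813 at an unadjusted p under 0.05. They were Btg2, Ccn1, Ifrd1, an immediate-early regulator of muscle differentiation, and Gm35261, a predicted gene. Btg2 stood at 206 CPM in A-line HOM replicate 1 and 70.8, 51.8 and 60.7 CPM in A-line HET (1.75 ± 0.23 on the log2 scale, SE; adjusted p = 0.0278). Ccn1 was at 103 CPM against 36.5, 41.98 and 47.2 CPM (1.29 ± 0.18 on the log2 scale, SE; adjusted p = 0.0278). Ifrd1 was at 73.5 CPM against 37.98, 42.9 and 43.4 CPM (0.83 ± 0.12 on the log2 scale, SE; adjusted p = 0.033).

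For the genes that had nearly vanished or appeared with 1 mutated copy, the library with both copies mutated gave no call. Myh7b was at 0.343 CPM, Hopx at 2.23 CPM, Casq1 at 341 CPM and Ankrd1 at 5445 CPM in A-line HOM replicate 1. Their adjusted p-values against A-line HET were 0.999, 0.999, 0.999 and 0.999, which with 1 library shows no likeness. Without A-line HET replicate 1 edgeR called 1 gene, none of the 4, and Btg2, Ccn1 and Ifrd1 each stood at an adjusted p of 0.0747. It called 0 without replicate 2 (816 at an unadjusted p under 0.05) and 4 without replicate 3, of which 2 were among the 4 above. DESeq2 called 25 with all libraries.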

How the data were processed

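The deposited table holds raw counts per gene symbol for each library (unit: counts). Per the labels' protocols, TRIzol and DNase were used for the RNA, and a TruSeq Gold kit for the total RNA libraries. Per the submitters' processing notes, bcl2fastq 2.20.0.422, Trimmomatic 0.39 and STAR 2.7.4a were used, on GRCm39; no source used here names the counting program, the annotation or the use of strand. From these counts, edgeR 4.0.16 (R 4.3.3) was fitted with TMM factors and 5 group means over the 13 distinct libraries (8 residual degrees of freedom), so that all groups shared the estimate of spread. A gene was tested with 10 counts or more in the median library's terms (0.422 CPM) in at least 3 libraries and a total of at least 15, which left 17588. The quasi-likelihood test was adjusted by Benjamini-Hochberg at 0.05, and the standard error is the absolute log2 fold change divided by the root of F. On simulated counts for 17191 genes in 3 simulations, 71.7% of genes changed by 1 log2 unit and 92% of those changed by 2 were recovered, with 32 false among 523 calls. Alternatives were DESeq2 1.42.0, other size factors, filters, sample sets and each library left out.

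The members and gene lists were chosen with earlier results of these data known. Named genes were, among called genes of at least 1 CPM whose libraries did not overlap, 12 at each end of the fold change. Predicted, clone-named and unnamed symbols, Xist, Tsix and Y-linked genes were left out of these. Then came Rbm20, a panel of 20 heart genes, and for each list up to 4 called members by smallest p and up to 2 others by highest mean CPM. Other called list members are named by their call, and some with a value, as are LOC118568781, Gm35261, Ifrd1, Slc39a14, Upk3b, Arntl and Myl7; these were chosen after their values were seen. Some called list members are not reported here.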

Additional observations from a re-analysis of the deposited data

Results flagged for a closer look

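These 9 results stood out because a test of the difference between 2 mutant groups passed, each by edgeR's quasi-likelihood test over all genes with n = 3 against n = 3, or with n = 1 for A-line HOM. Between the heterozygous lines, 5 genes passed, given as log2 difference of A-line HET from G-line HET. LOC118568781 was at 4.25 (adjusted p = 0.00746), with 2.76, 2.51 and 1.06 CPM in A-line HET, 0.0756, 0.1295 and 0.1099 CPM in G-line HET and 0.515, 0.757 and 0.625 CPM in WT. Bcl2l11 was at 1.1 (adjusted p = 0.0365). Edn3 was at -3.56 (adjusted p = 0.0393). Hspb6 was at -0.66 and Slc39a14 at -0.74 (adjusted p = 0.0398 and 0.0398). All 5 were also called without A-line HET replicate 1, where 607 genes were, and none of them without A-line HET replicate 2, G-line HET replicate 1 or G-line HET replicate 3, where edgeR called 0 (1672, 1412 and 1902 at an unadjusted p under 0.05).

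Between A-line HOM replicate 1 and A-line HET, 4 genes passed. Btg2 differed by 1.75 on the log2 scale, Ccn1 by 1.29, Ifrd1 by 0.83 and Gm35261 by 1.81, all higher in A-line HOM (adjusted p = 0.0278, 0.0278, 0.033 and 0.0278). Gm35261 had 39.8 CPM in the A-line HOM library, against 10.01, 9.45 and 14.4 CPM in A-line HET and 11.9, 12.4 and 10.6 CPM in WT.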

How the results depend on the processing

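The 2 libraries shared with A-line HOM and the small groups set the main limits: of 189 called genes among the 200 named, 66 stayed called without any 1 library, 21 without the shared pair, and 5 were not tested in some of these settings. Without the 3 libraries with atrial transcripts 87 of the 189 stayed called. All 189 kept their direction under all alternatives that tested them. Where the shared pair was counted in both groups this was largely fixed in advance, since the compared groups were unchanged. Rbm20 and Camk2d, not called at 0.06 and -0.01, changed sign: Rbm20 to -0.0259 without the shared libraries, -0.0231 with them as A-line HOM and -0.0514 without the 3 libraries with atrial transcripts. With 1 library left out Rbm20 ran from -0.0074 (without WT replicate 2) to 0.118 and Camk2d from -0.0541 to 0.048 (without A-line HET replicate 1). The median of all genes stayed between 0 and 0.03.

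Counts for A-line HET against WT were 1400, with 1818 by DESeq2, 165 without the shared libraries, 0 with them as A-line HOM or in both groups, 651 without the 3 libraries with atrial transcripts, 834 without those with shifted clock genes, and 622 to 2038 with 1 library left out. For A-line HET against G-line HET (5) they were 252 by DESeq2, 69 with no filter, 2 at 1 CPM or more, 3 without the shared libraries, 1 with them as A-line HOM or in both groups, 3 without the 3 libraries with atrial transcripts, 0 without those with shifted clock genes (1821 at an unadjusted p under 0.05), and 0 to 607 with 1 library left out. For A-line HOM against A-line HET (4) they were 25 by DESeq2, 13 with no filter, 0 without the shared libraries, with them as A-line HOM or in both groups (670, 1284 and 1568 unadjusted), 2 without those with shifted clock genes, and 0 to 4 with 1 library left out. The cause was not tested, except that fewer samples enter where libraries are left out. With the shared pair left out or counted as A-line HOM, A-line HET was compared with the same library, WT replicate 1. In the latter setting the pair also entered the estimate of spread, beside A-line HOM replicate 1.

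With the replicate number as a block the 3 counts were 1046, 1 and 0 (713 unadjusted). For each library, the deviations of log2 CPM from its group mean were taken over 14269 genes. Between same-numbered A-line HET and WT libraries these deviations correlated at 0.18, -0.22 and -0.37, which showed no pairing by number. No library correlated best with its own number. The highest value, 0.56, was between A-line HET replicate 3 and WT replicate 2, both with atrial transcripts.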
